A study of Mus musculus with 2 samples.

Results

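The 36 genes described here encode enzymes of the tricarboxylic acid (TCA) cycle with its pyruvate and oxaloacetate connections (20 genes) and enzymes of branched-chain amino acid (BCAA) breakdown (16 genes), out of 21853 protein-coding genes. They were chosen by name from the pathways, and all 36 names matched the GENCODE M21 annotation of the mouse genome build mm10. Binding of lysine-specific demethylase 1 (LSD1, encoded by Kdm1a), a histone demethylase that works in corepressor complexes, was mapped by chromatin immunoprecipitation and sequencing. The series comprises 1 LSD1 immunoprecipitate and 1 input DNA library, both from primary brown adipocytes of C57BL/6 N mice with the genotype label Control. The cells, at passage 2 to 3 and grown with 20% fetal bovine serum, were taken on day 10 of differentiation and fixed for 5 min. The immunoprecipitate was made with an LSD1 antibody, and the input had none. Their differentiation agents were rosiglitazone at 1 µM, isobutylmethylxanthine at 500 µM, dexamethasone at 1 µM, indomethacin at 125 nM, insulin at 850 nM and the thyroid hormone T3 at 1 nM. The data are 1 list of 59175 LSD1 peaks, each with a score set by the authors, and there are no replicates. No statistical test was therefore made, and differences between genes are given as descriptions of this library. The list holds neither read counts nor expression values, so the depth is unknown and the identity of the cells could not be checked against marker expression.

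Brown adipocytes burn fuel in their mitochondria to make heat, and both pathways feed that process. The TCA cycle oxidises acetyl-CoA from fat, glucose and amino acids and passes electrons to the respiratory chain, while pyruvate carboxylase refills it and phosphoenolpyruvate (PEP) carboxykinases draw oxaloacetate out of it. Leucine, isoleucine and valine first lose their amino group to a transaminase and are then committed to oxidation by the branched-chain ketoacid dehydrogenase (BCKDH) complex, whose products enter the TCA cycle as acetyl-CoA or succinyl-CoA.

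A gene was counted as promoter-occupied when a peak overlapped the 1 kb on either side of any of its protein-coding transcript starts by at least 1 bp. The sequences below set occupied beside unoccupied promoters. Each is the 250 bases before a RefSeq start (build GRCm38.p6, the same chromosomes as mm10, written 5′ to 3′ along the gene) in lower case, with every CpG dinucleotide in capitals, because genes with more CpG in the promoter were occupied more often in this list. Occupied examples are the highest-scoring and lowest-scoring promoter of each pathway, namely Aco1 and Idh2 for the TCA genes and Hibadh and Mccc2 for the BCAA genes. Unoccupied examples are Idh3b and Bckdhb, the first of each pathway in list order, and Dld and Pck1, which were chosen after their values were seen.
Aco1, chr4:40143015-40143264, plus strand: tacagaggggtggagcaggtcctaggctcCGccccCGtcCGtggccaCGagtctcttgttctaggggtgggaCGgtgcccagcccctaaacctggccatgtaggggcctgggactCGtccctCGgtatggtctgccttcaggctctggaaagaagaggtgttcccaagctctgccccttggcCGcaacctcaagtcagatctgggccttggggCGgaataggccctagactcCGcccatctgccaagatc
Idh2, chr7:80115351-80115600, minus strand: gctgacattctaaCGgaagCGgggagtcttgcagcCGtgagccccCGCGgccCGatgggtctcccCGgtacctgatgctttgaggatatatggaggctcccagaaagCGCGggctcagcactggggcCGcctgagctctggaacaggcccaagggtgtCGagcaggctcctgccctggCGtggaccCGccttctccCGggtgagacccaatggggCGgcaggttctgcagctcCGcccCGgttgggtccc
Hibadh, chr6:52640301-52640550, minus strand: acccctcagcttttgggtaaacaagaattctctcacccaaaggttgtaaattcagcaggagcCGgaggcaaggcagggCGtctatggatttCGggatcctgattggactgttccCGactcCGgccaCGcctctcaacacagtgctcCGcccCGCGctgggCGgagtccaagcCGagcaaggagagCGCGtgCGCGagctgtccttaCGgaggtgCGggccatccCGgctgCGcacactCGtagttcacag
Mccc2, chr13:100015640-100015889, minus strand: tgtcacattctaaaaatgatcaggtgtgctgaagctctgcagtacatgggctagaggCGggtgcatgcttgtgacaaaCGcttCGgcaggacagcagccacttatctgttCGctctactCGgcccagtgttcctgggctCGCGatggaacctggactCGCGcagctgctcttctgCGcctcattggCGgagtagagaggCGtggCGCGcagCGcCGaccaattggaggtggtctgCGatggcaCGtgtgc
Idh3b, chr2:130284452-130284701, minus strand: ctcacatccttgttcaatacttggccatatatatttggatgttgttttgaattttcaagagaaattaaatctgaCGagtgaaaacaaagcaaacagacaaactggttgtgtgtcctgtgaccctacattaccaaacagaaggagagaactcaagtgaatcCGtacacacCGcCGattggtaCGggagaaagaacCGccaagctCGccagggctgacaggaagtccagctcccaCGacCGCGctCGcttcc
Bckdhb, chr9:83924887-83925136, plus strand: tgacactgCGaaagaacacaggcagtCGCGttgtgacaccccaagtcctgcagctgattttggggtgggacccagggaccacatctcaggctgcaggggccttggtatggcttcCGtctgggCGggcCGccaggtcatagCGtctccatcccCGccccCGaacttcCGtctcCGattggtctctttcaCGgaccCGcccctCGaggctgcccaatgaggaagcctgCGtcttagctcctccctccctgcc
Dld, chr12:31351472-31351721, minus strand: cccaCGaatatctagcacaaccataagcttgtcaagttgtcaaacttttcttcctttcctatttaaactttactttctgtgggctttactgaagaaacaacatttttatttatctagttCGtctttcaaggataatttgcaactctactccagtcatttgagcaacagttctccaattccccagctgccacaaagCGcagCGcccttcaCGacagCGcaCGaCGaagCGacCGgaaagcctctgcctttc
Pck1, chr2:173152823-173153072, plus strand: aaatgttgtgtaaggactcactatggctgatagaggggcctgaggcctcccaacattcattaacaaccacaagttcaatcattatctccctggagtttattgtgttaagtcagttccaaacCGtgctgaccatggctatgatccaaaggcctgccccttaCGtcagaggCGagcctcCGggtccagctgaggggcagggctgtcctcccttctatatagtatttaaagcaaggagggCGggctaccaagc

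These stretches hold 10 CpG in Aco1, 17 in Idh2, 20 in Hibadh and 18 in Mccc2, against 11 in Idh3b, 15 in Bckdhb, 10 in Dld and 5 in Pck1. Among these 8 stretches, chosen as extremes or after their values were seen, the counts of occupied and unoccupied genes overlapped. Aco1, with the highest score of all 36 genes, held as few CpG as Dld, which had no peak. Relative to the number implied by their C and G content these stretches differed, with ratios of 0.406 in Aco1 and 0.927 in Dld. All 250 bases lay under the LSD1 peak in Aco1 and Hibadh, 106 did in Mccc2, and none did in Idh2, whose peak lay downstream of the start.

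Most genes of both pathways carried an LSD1 peak at the promoter. The count was 17 of 20 TCA genes (85.0%) and 13 of 16 BCAA genes (81.2%), against 12199 of 21853 protein-coding genes (55.8%). The pathways differed by 3.75 percentage points, which is less than the 5 points that 1 TCA gene stands for. The members without a promoter peak were Idh3b, Dld and Pck1 among the TCA genes and Bckdhb, Mccc1 and Hibch among the BCAA genes. A peak anywhere from 10 kb upstream to the gene end was found for 19 of 20 TCA genes and 14 of 16 BCAA genes (87.5%), against 69.8% of all protein-coding genes. Dld, Mccc1 and Hibch had none in that window.

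The scores of the occupied promoters were not high for this list. Taking the highest promoter peak of each gene, the median was 263 over the 17 TCA genes (quartiles 155 and 445) and 272 over the 13 BCAA genes (quartiles 242 and 388), against 315 over all occupied protein-coding genes (quartiles 156 and 570). The range was wider among TCA genes, from 77.6 at Idh2 to 1343 at Aco1, than among BCAA genes, from 85.3 at Mccc2 to 749 at Hibadh. A promoter peak among the highest-scoring 10% of the list (score 391 or more) stood at 7 of 20 TCA genes (35.0%) and 3 of 16 BCAA genes (18.8%), against 22.8% of all genes. These shares are of all genes, occupied or not. Among occupied genes the counts were 7 of 17 for TCA, 3 of 13 for BCAA and 4984 of 12199 for all genes. The score rises with peak width over the whole list (r = 0.867 between their logarithms, across peaks that are not independent replicates), and it ranks peaks within this list only.

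**Figure D1:**
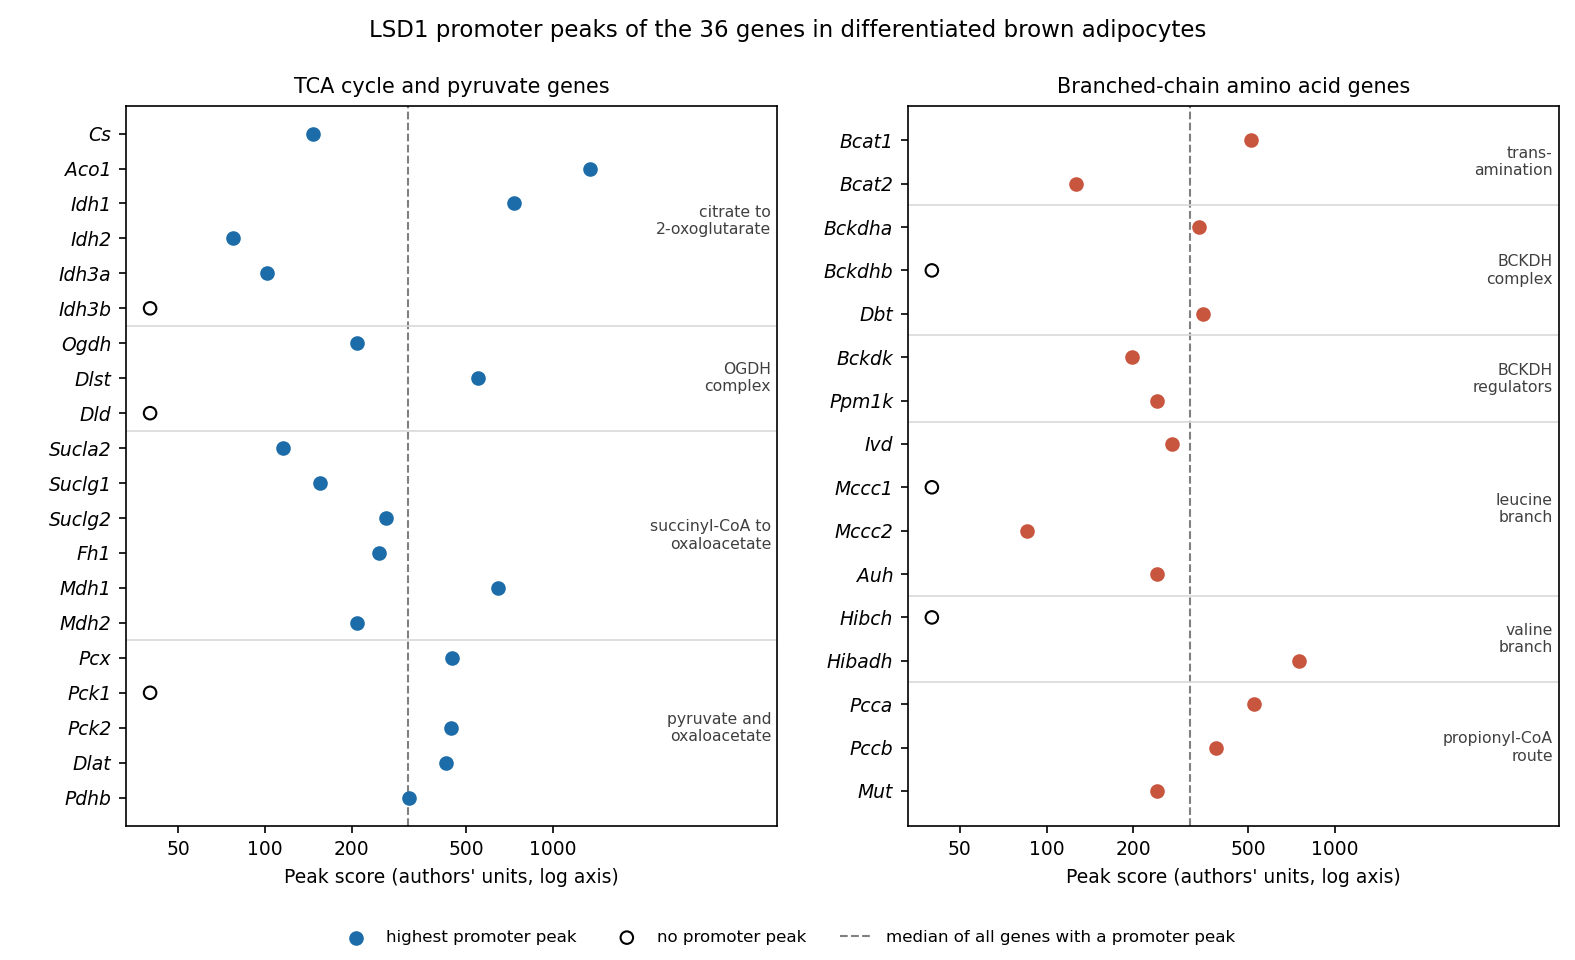
Score of the highest LSD1 promoter peak (x axis, authors' units, log scale) for each of the 20 TCA cycle and pyruvate genes (left) and 16 BCAA genes (right), grouped by step. Open circles at the left edge are the 6 genes without a promoter peak, and the dashed line is the median of 315 over all occupied genes, with 8 TCA genes and 6 BCAA genes above it.

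Among the genes listed for the first steps of the TCA cycle, scores were uneven. These genes include Aco1 and Idh1, whose enzymes are cytosolic, and the highest scores were at those genes. Citrate synthase, Cs, which joins acetyl-CoA to oxaloacetate, had a promoter peak of score 147 over its untranslated first exon (chromosome 10, 128337446–128338217) and a second of score 120 that reached into the 1 kb from downstream. Stronger peaks lay in an intron of Cs, with scores of 282 and 349 at 6021 and 7135 bp from the start. Aco1, the cytosolic aconitase that also serves as an iron-regulatory protein, had a peak of 1357 bp and score 1343 (chromosome 4, 40142674–40144030), above 96.1% of the occupied promoters in the list. Idh1, the cytosolic NADP-dependent isocitrate dehydrogenase, was next among TCA genes. Its 2 promoter peaks scored 729 (chromosome 1, 65177768–65179603, in an intron at an internal start) and 511 (65185535–65187106, over the untranslated region at the annotated 5′ end).

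The mitochondrial isocitrate dehydrogenases stood low. Idh2, the mitochondrial NADP-dependent enzyme, had a peak of score 77.6 whose midpoint lay in an intron 737 bp downstream of a start, without reaching any start of the gene. Idh3a, the catalytic subunit of the NAD-dependent enzyme that runs the cycle, had a promoter peak of score 102 (chromosome 9, 54586009–54586761) and a higher one, score 205, in an intron at 1534 bp. Idh3b, a companion subunit of the same enzyme, had no promoter peak. The nearest peak to its start, at chromosome 2, 130279287–130279789 (score 117), lay over its own untranslated 3′ end 4758 bp away, with Nop56 as the gene of the nearest start. The other peaks of its window, at 130290768–130291698 (score 170) and 130294521–130296894 (score 872), were nearer to Ebf4 than to Idh3b, and the midpoint of the last lay 231 bp from an Ebf4 start.

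The 2-oxoglutarate dehydrogenase complex was occupied at 2 of its 3 genes. Dlst, its succinyltransferase core, had a peak of score 549 centred 22 bp from the start. Ogdh, the subunit that decarboxylates 2-oxoglutarate, had a peak of score 209 (chromosome 11, 6290927–6291903, midpoint in intergenic sequence 218 bp upstream) and another of score 136 at an internal start. Dld, the dihydrolipoyl dehydrogenase that the pyruvate, 2-oxoglutarate and branched-chain ketoacid dehydrogenases share, had no peak in its window. The peak nearest to its start lay 44413 bp downstream, towards Lamb1.

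All 6 genes described here from succinyl-CoA to oxaloacetate were occupied, counting the cytosolic Mdh1. The genes of succinate dehydrogenase, which also belongs to this span, are not among them. Of those, Sdha, Sdhb and Sdhc had promoter scores of 637, 812 and 145, and Sdhd had no promoter peak and none in its window. The succinyl-CoA ligase genes had modest scores, with 116 at Sucla2 (the ATP-forming subunit), 155 at Suclg1 (the subunit common to both forms) and 263 at Suclg2 (the GTP-forming subunit). Sucla2 carried separate peaks at 2 starts, with scores of 85.9 and 116. Fh1, fumarate hydratase, scored 249. Mdh1, the cytosolic malate dehydrogenase, scored 645 (chromosome 11, 21571228–21572665) and Mdh2, the mitochondrial form, 209. Both malate dehydrogenase peaks also covered the start of a neighbour, Wdpcp at Mdh1 and Styxl1 at Mdh2, so the peak cannot be assigned to 1 gene of either pair.

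Genes that feed pyruvate into the cycle or take oxaloacetate out of it were occupied at 4 of 5 members, and all 4 scores exceeded the median of all occupied genes. Pcx, pyruvate carboxylase, scored 445 (chromosome 19, 4510016–4511591, in an intron 318 bp downstream of the start). Dlat and Pdhb, the acetyltransferase core and a subunit of pyruvate dehydrogenase, scored 424 and 316. Pck2, the mitochondrial PEP carboxykinase, scored 441. Pck1, the cytosolic PEP carboxykinase that adipocytes use to make glycerol phosphate for triglyceride, had no promoter peak but 1 intergenic peak of score 154 (chromosome 2, 173150625–173151480), with its midpoint 1995 bp upstream of the start.

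In BCAA breakdown, both transaminases were occupied. Bcat1, the cytosolic form, scored 512 at the promoter (chromosome 6, 145074789–145076324) and had 8 peaks in its window. Bcat2, the mitochondrial form, scored 126 at the promoter (chromosome 7, 45570381–45571216). The highest peak of Bcat2 lay elsewhere, in an intron near the gene end at 45588708–45589703 (score 542).

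The BCKDH complex, the committed step, had promoter peaks at 2 of its 3 genes besides the shared Dld, which had none. Dbt, the transacylase core, scored 349 (chromosome 3, 116512924–116513914). Bckdha, the alpha subunit of the decarboxylase, scored 339 (chromosome 7, 25658803–25659429), but the midpoint of that peak was 48 bp from a start of Exosc5, nearer than to any start of Bckdha, and the peak covered starts of both genes. A further promoter peak of Bckdha, 612 bp downstream of its start, scored 117. Bckdhb, the beta subunit, had no peak within 13542 bp of a start and 7 intronic peaks. They lay on chromosome 9 at 83962323–83963260 (score 313), 83975701–83976297 (score 76.0), 84033006–84033585 (score 119), 84081091–84081664 (score 105), 84094055–84094710 (score 119), 84096956–84097550 (score 63.2) and 84106905–84107643 (score 128). Bckdhb is 199096 bp long, against a median of 17380 bp over protein-coding genes, and a longer gene has more room for peaks.

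Both regulators of the complex were occupied at scores below the median of 315. Bckdk, the kinase that inactivates BCKDH, scored 198 (chromosome 7, 127903638–127904561). Ppm1k, the phosphatase that reactivates it, scored 242 (chromosome 6, 57534842–57535730), with an adjacent peak of score 136.

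Downstream, the branches differed from gene to gene. In leucine breakdown, Ivd (isovaleryl-CoA dehydrogenase) scored 272, Auh (methylglutaconyl-CoA hydratase) 242 with 3 promoter peaks, and Mccc2, the beta subunit of methylcrotonyl-CoA carboxylase, 85.3. Mccc1, the alpha subunit of that carboxylase, had no peak in its window, and the nearest lay 30999 bp upstream. In the valine branch, Hibadh (3-hydroxyisobutyrate dehydrogenase) had the highest score of the pathway, 749 (chromosome 6, 52639170–52640837). Hibch, the hydrolase that acts just before it, had no peak in its window, and the nearest lay 27234 bp upstream. On the propionyl-CoA route to succinyl-CoA, all 3 genes were occupied. The propionyl-CoA carboxylase subunits Pcca and Pccb scored 522 (chromosome 14, 122533670–122534726) and 388, and Mut, the methylmalonyl-CoA mutase, scored 242 at a peak that also covered a start of Cenpq.

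Of the 7 enzymes with several subunit genes among the 36, 2 had a promoter peak at all of those genes and 5 at some of them, counting Dld with each of the 3 dehydrogenase complexes that use it. Without Dld, the counts were 4 and 3. Per gene, 30 of the 36 (83.3%) were occupied, and the counts of enzymes were not tested against that share. The fully occupied enzymes were succinyl-CoA ligase, with scores of 116, 155 and 263, and propionyl-CoA carboxylase, with 522 and 388. Among the 36 genes, the 2-oxoglutarate and pyruvate dehydrogenase complexes lacked a peak at Dld alone. The scores beside it were 209 at Ogdh and 549 at Dlst, and 424 at Dlat and 316 at Pdhb. Outside the 36 genes, the pyruvate dehydrogenase subunit gene Pdha1 also had no promoter peak, while Pdhx of the same complex scored 297. The other 3 enzymes lacked a peak at a subunit gene of their own among the 36. Methylcrotonyl-CoA carboxylase had 85.3 at Mccc2 and no promoter peak at Mccc1. The NAD-dependent isocitrate dehydrogenase had 102 at Idh3a and no promoter peak at Idh3b, and its subunit gene Idh3g, outside the 36 genes, also had none. BCKDH had 339 at Bckdha and 349 at Dbt and no promoter peak at Bckdhb.

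For 4 enzymes the 36 genes include both a cytosolic and a mitochondrial form, a grouping made after the values were seen. The cytosolic gene had the higher promoter score in the 3 pairs with both genes occupied. The scores were 729 at Idh1 and 77.6 at Idh2, 645 at Mdh1 and 209 at Mdh2, and 512 at Bcat1 and 126 at Bcat2. The ratios were 9.39, 3.08 and 4.07 in that order. The Mdh1 and Mdh2 peaks also covered starts of Wdpcp and Styxl1, so neither can be assigned to 1 gene alone. The Idh1 value is that of the peak at an internal start, and the peak at its annotated 5′ end scored 511. Malic enzyme, outside the 36 genes, ran the other way, with a score of 340 at the cytosolic Me1, against 923 and 443 at the mitochondrial Me2 and Me3. So did PEP carboxykinase, with no promoter peak at the cytosolic Pck1 and a score of 441 at the mitochondrial Pck2. The peaks of the cytosolic Idh1, Mdh1 and Bcat1 were also wider, at 1836, 1438 and 1536 bp, against 672, 928 and 836 bp at Idh2, Mdh2 and Bcat2. The gene with the higher score had the higher promoter CpG ratio, in 3 of the 4 pairs among the 36 genes, with Pck1 taken as lower than Pck2. The ratios were 0.812 at Idh1 and 0.723 at Idh2, 0.761 at Mdh1 and 0.858 at Mdh2, 0.737 at Bcat1 and 0.591 at Bcat2, and 0.300 at Pck1 and 0.417 at Pck2.

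**Figure D2:**
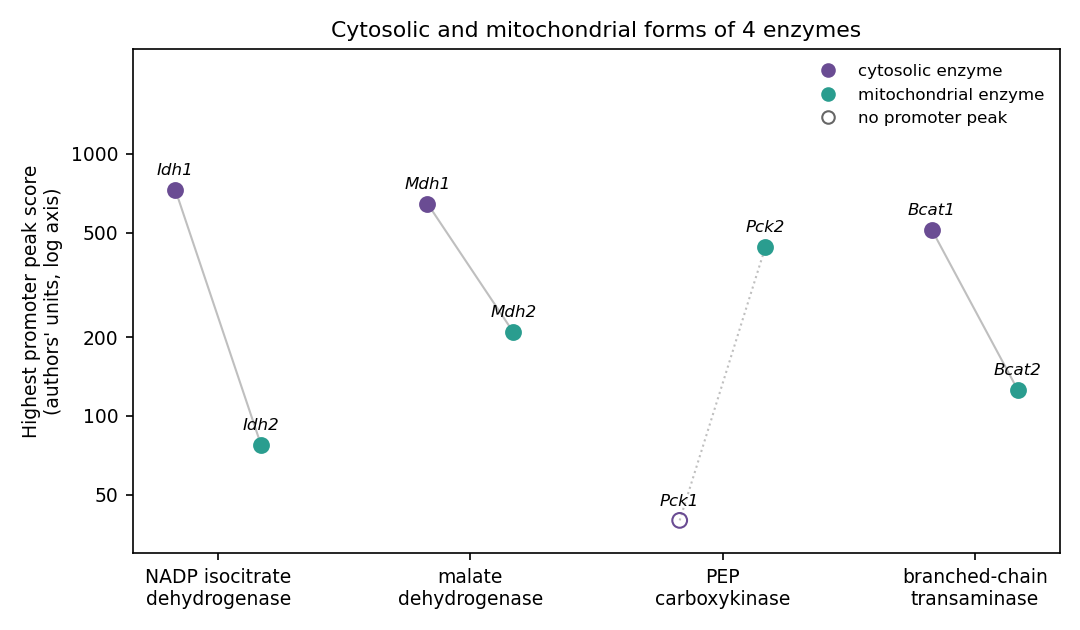
Score of the highest LSD1 promoter peak (y axis, authors' units, log scale) for the cytosolic (left point) and mitochondrial (right point) form of the 4 enzymes with both forms among the 36 genes. The cytosolic point is higher in 3 pairs, by 3.08 to 9.39 times, and the open circle marks Pck1, which had no promoter peak. The Mdh1 and Mdh2 peaks also cover starts of the neighbours Wdpcp and Styxl1, and the Idh1 point is its internal-start peak.

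The CpG content of the promoters moved with these counts. It was measured over 1 kb centred on each start as the number of CpG dinucleotides relative to that implied by the C and G content, and the highest ratio among the starts of a gene was used. The median ratio was 0.793 over TCA genes and 0.649 over BCAA genes, against 0.614 over all protein-coding genes. In the CpG-rich deciles 7 to 10 of all genes lay 16 TCA genes, of which 14 were occupied, and 6 BCAA genes, all occupied, against 88.9% of the 8741 genes in those deciles. Deciles 5 and 6 held 2 TCA genes, both occupied, and 10 BCAA genes, 7 of them occupied, against 70.7% of 4370 genes. Over deciles 5 to 10 the members' count was 29 of 34, near the 82.9% of all genes there, so the occupancy of these genes was close to that of other genes of like CpG content. The other members were Pck1 in decile 3, unoccupied, and Pck2 in decile 4, occupied. Only 15.3% of genes in deciles 1 to 4 were occupied. Dld (ratio 0.837, decile 9) and Idh3b (0.768, decile 8) were unoccupied although 90.1% and 88.0% of the genes in their deciles carried a promoter peak.

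**Figure D3:**
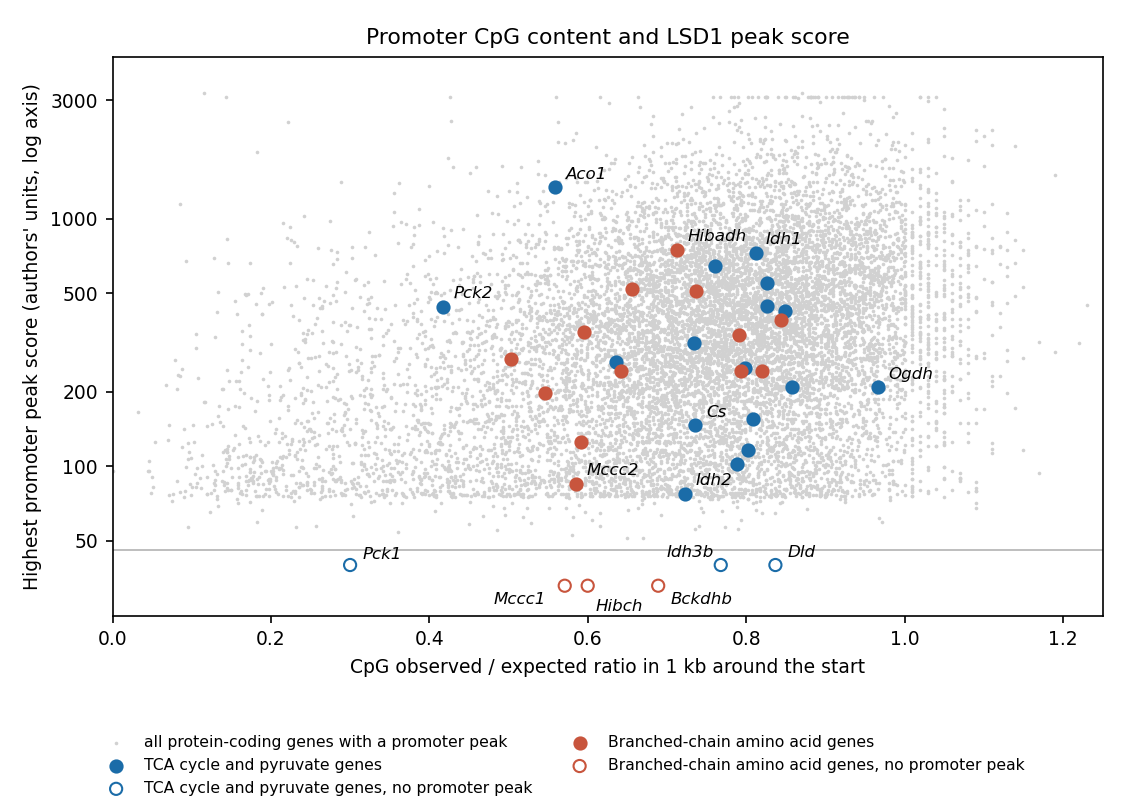
Promoter CpG ratio (x axis) against the highest promoter peak score (y axis, authors' units, log scale) for all occupied protein-coding genes (grey), TCA genes (blue) and BCAA genes (red). Open circles under the line are the 6 members without a promoter peak, which span CpG ratios from 0.300 at Pck1 to 0.837 at Dld.

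The peaks of occupied members tended to lie downstream of the start. The midpoint of the highest promoter peak was downstream in 14 of 17 TCA genes (median 179 bp) and in 9 of 13 BCAA genes (median 90.0 bp), against 51.3% of all occupied genes (median 6.00 bp). The peak covered a start of its own gene in 15 of 17 TCA genes and 13 of 13 BCAA genes, against 81.9% of all occupied genes. The exceptions were Idh2 and Sucla2. Each of the 2 pathways had 2 genes whose highest promoter peak also covered the start of a neighbour (11.8% and 15.4%), against 16.7% of all occupied genes.

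Apart from the genes' own promoters, the windows of the 20 TCA genes held 30 further peaks and those of the 16 BCAA genes 35. Of these, 2 in each pathway lay at the promoter of a neighbour, Ebf4 and Lrfn4 for the TCA genes and Rtca and Vkorc1 for the BCAA genes. The other 28 and 33, outside all protein-coding promoters, had median scores of 118 and 103, against 102 over the 44752 such peaks of the list. Introns held the midpoints of 19 of the 30 peaks in the TCA windows and 27 of the 35 in the BCAA windows. For 7 of the 30 and 6 of the 35 the nearest protein-coding start belonged to another gene. In 6 of the 30 occupied members (20.0%) the highest peak of the window was not at the promoter, against 19.6% of all occupied genes. These were Cs and Idh3a, with intronic peaks described above, and Bcat2, Dbt, Bckdk and Ivd. For Dbt and Bckdk the higher peak belonged by position to a neighbour, with score 569 at 101 bp from a start of Rtca and score 337 at 57 bp from a start of Vkorc1. For Ivd it was an intergenic peak of score 329 at the gene end. The number of peaks per 100 kb of window was 5.20 in TCA genes and 3.88 in BCAA genes, against 3.82 over all genes. BCAA genes were longer, with a median of 47117 bp against 24380 bp for TCA genes.

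**Figure D4:**
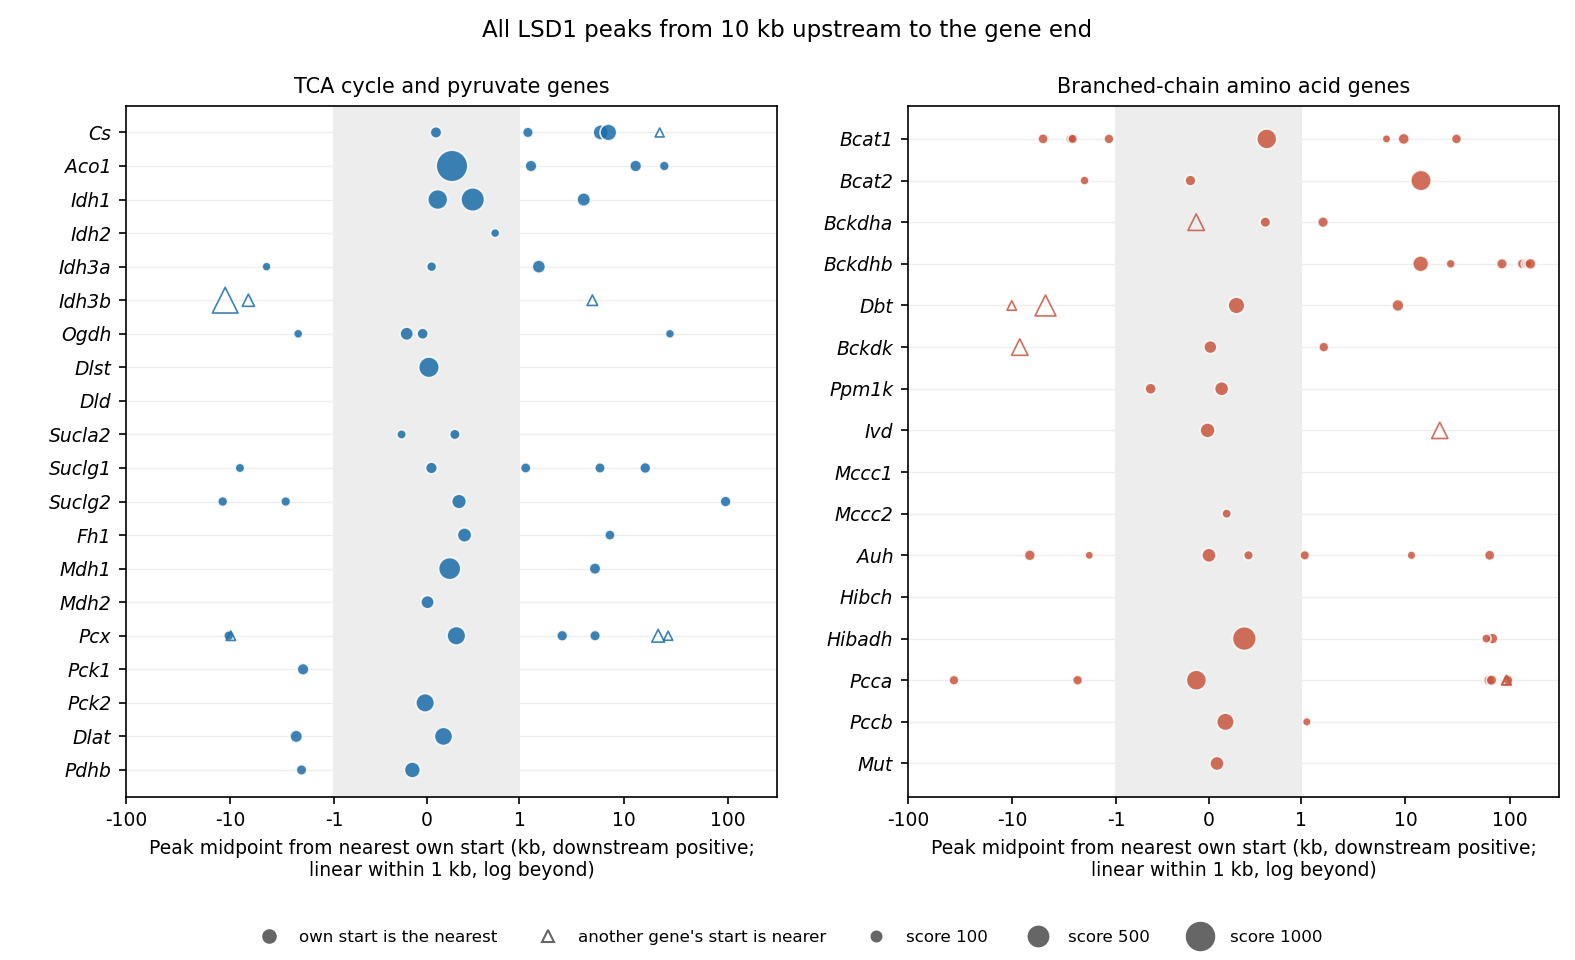
Position of every LSD1 peak from 10 kb upstream to the gene end, as the distance of its midpoint from the nearest start of the gene (x axis in kb, downstream positive, linear within 1 kb and logarithmic beyond), with symbol area rising with score. Triangles are peaks nearer to another gene's start, such as the score 872 peak of Ebf4 in the window of Idh3b, and Dld, Mccc1 and Hibch have no symbol.

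Short sequence motifs of factors known to act at metabolic promoters were searched on both strands of the RefSeq promoters, from 250 bases before to 50 after the start. Promoters were found for 33 of the 36 genes, all but Idh3a, Dbt and Mut, and for 16515 protein-coding genes, and none of the motifs contains another. GGGGCGGGG (SP) occurred in 6 of 19 TCA genes and 6 of 14 BCAA genes, among them the unoccupied Bckdhb, Mccc1 and Hibch. The share was 17.9% over all genes and 25.7% over occupied genes. CCGGAAG (ETS) occurred at Idh3b, Dlst and Auh, against 13.4% of all genes. GCATGCGC (NRF1) occurred at Ogdh and Pccb (4.11% of all genes), TGACGTCA (CRE) at Ogdh and Mdh2 (2.64%) and CACGTG (E-box) at Ogdh, Pcx and Mccc2 (9.18%). AAGATGGCG (YY1) occurred at Bckdha (2.25%) and TATAAA, a core promoter element, at Bcat1 and Bckdk (14.3%). TCAAGGTCA, the site of oestrogen-related receptors, occurred in none of the members and in 0.388% of all genes. Ogdh, which held 4 of the 8 motifs, has 6 RefSeq promoters and so more sequence to match. It is 1 of 7 members with several RefSeq promoters.

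Other genes of these pathways were also listed by name, with earlier results of these data known, so they are no independent check on the 36 genes. Of these, 16 of 19 (84.2%) were occupied for the TCA cycle and pyruvate and 10 of 13 (76.9%) for BCAA breakdown. The share was 55.8% over all protein-coding genes and 82.9% over CpG deciles 5 to 10, where all of these other genes lie. Their occupancy was thus close to that of genes of like CpG content. The median scores of these other genes were 441 and 513, above those of the 36 genes (263 and 272). The highest for the TCA cycle were Mpc2, a subunit of the mitochondrial pyruvate carrier, at 2033 (a peak that also covered a start of Dcaf6), Pdk1, a kinase that inactivates pyruvate dehydrogenase, at 1053, and Me2, the mitochondrial malic enzyme, at 923. For BCAA breakdown they were Mmaa, which serves the cobalamin cofactor of Mut, at 902, Oxct1, a ketone body transferase, at 687, and Mmab, which also serves that cofactor, at 685 (a peak that also covered a start of Mvk). Unoccupied were Idh3g, Sdhd and Pdha1 for the TCA cycle and Hsd17b10, Slc25a44 and Slc7a5 for BCAA breakdown. Among them, Slc25a44, which carries BCAA into mitochondria, had 1 peak in its window and Slc7a5, a cell-surface amino acid transporter, had 4. Idh3g, Pdha1 and Hsd17b10 lie on chromosome X, where 14.0% of 948 protein-coding genes had a promoter peak, against 58.2% of the 20722 on autosomes. None of the 36 genes is on chromosome X.

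**Figure D5:**
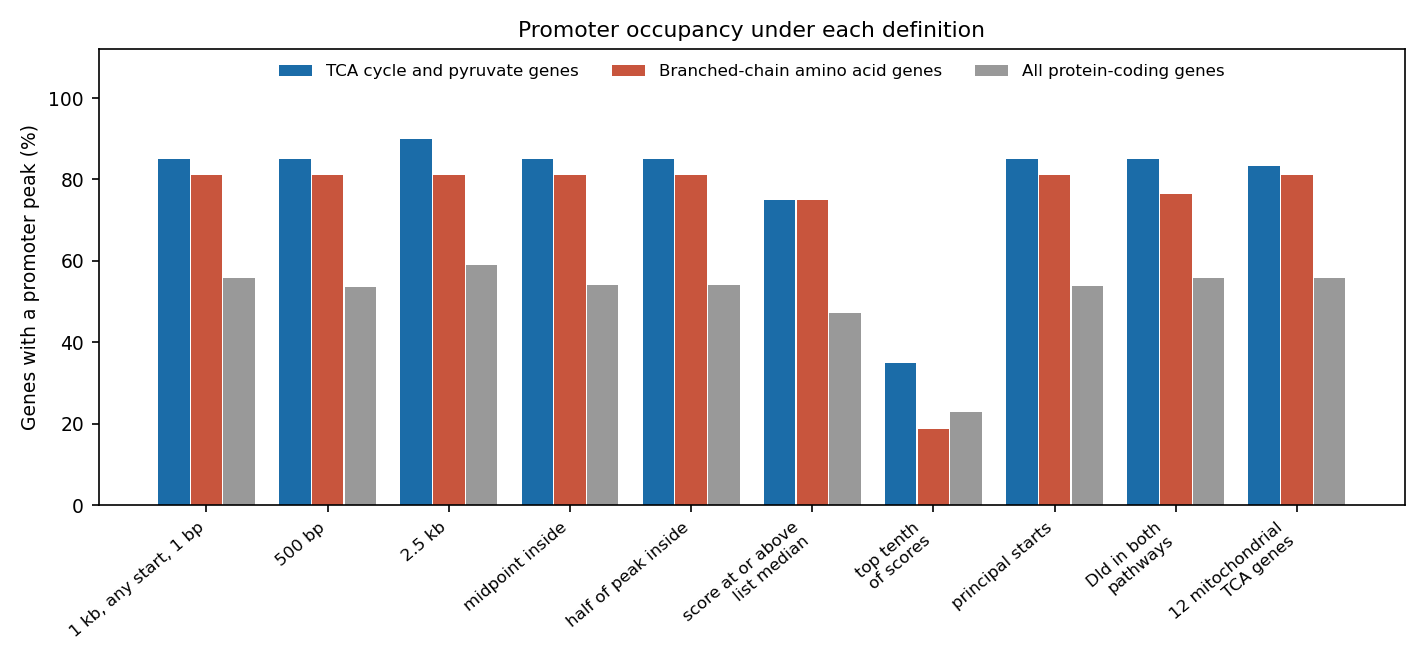
Share of genes with a promoter peak (y axis, percent) among TCA genes, BCAA genes and all protein-coding genes under the definition used and 9 others. Both pathways lie above all genes under each of them but 1, the highest-scoring 10% of peaks, where BCAA genes lie below, with 35.0% of TCA genes and 18.8% of BCAA genes, against 22.8% of all genes.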

How the data were processed

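The labels' protocols name Illumina sequencing, the build mm10 and the aligner Bowtie2, and MACS version 1.41 comes from the submitters' processing notes. No source used here gives the peak threshold, the read filters or the part that the input library had in peak calling. The deposited file lists the position, name and score of each peak. The score is the authors' own value, of unstated scale, and the lowest is 50.1. Starts were converted to count bases from 1.

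Gene models were GENCODE M21 with sequence from GRCm38.p6, and 0 peaks reached beyond a chromosome end. Promoter sequences are from RefSeq. A peak's annotation is that of its midpoint. The work used Python 3.11.15, numpy 2.4.6, scipy 1.17.1 and pysam 0.24.0, and the overlap functions were tested on simulated data. The genes and lists were chosen with earlier results of these data known. Some genes of these pathways are not reported here. All 36 genes are accounted for, with coordinates for the 3 highest-scoring promoters of each pathway, for the peaks of members without a promoter peak and for Cs, Ogdh, Idh3a, Pcx, Bcat2, Bckdha, Dbt, Bckdk and Ppm1k. With 1 list and unknown depth, no error can be attached to a score. Alternatives changed the promoter width, the overlap, the score threshold, the starts used, the window and the membership.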

Additional observations from a re-analysis of the deposited data

How the results depend on the processing

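No paired analysis was possible because the series has 1 immunoprecipitate and 1 input library and no test was made, and no replicate could be left out. Of 61 alternative values, 53 stayed within the limits set for them (1.5 times for a count, the quartiles of the members for a median score, a 95% interval for the difference in shares). The other 8 follow from the construction of the alternative, which leaves fewer peaks or fewer genes. Some of the 53 were likewise fixed by construction and do not speak for stability. Leaving TCA genes out could not alter a count or median score of the BCAA genes. Adding Dld, which had no peak, could not alter a count or median score of either pathway. With the highest-scoring 10% of peaks alone, promoter peaks remained at 7 of 20 TCA genes and 3 of 16 BCAA genes, with median scores of 549 and 522, and nearby peaks at 8 TCA genes and 5 BCAA genes. Without the pyruvate, oxaloacetate and cytosolic enzymes, 10 of 12 TCA genes had a promoter peak and 11 a nearby peak, and their median promoter score was 182. The difference between TCA and BCAA promoter occupancy ranged from 0.00 percentage points, with peaks at or above the median score, to 16.2 points, with the highest-scoring 10%. It was 8.53 points with Dld in both pathways. The 95% interval used as its limit ran from -20.6 to 29.9 points and treats genes as independent replicates, which they are not. All of these differences lay inside it, so staying within that limit says little about stability. Pck1 became occupied with promoters of 2.5 kb. With 50 kb upstream, all 16 BCAA genes had a nearby peak, against 79.2% of all protein-coding genes. For Mccc1 and Hibch the nearest of these peaks scored 76.6 and 92.4 and lay nearer to starts of Ccdc144b and Inpp1.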
